A study of Mus musculus with 6 samples.

Results

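Aldehyde dehydrogenases are enzymes that oxidise reactive aldehydes to acids. The transcripts of 10 of these genes, chosen among those of the family that are not known mainly for making retinoic acid, were examined in mouse skin with a constitutively active Nrf2 (caNrf2). They are Aldh3a1, Aldh3a2, Aldh3b1, Aldh2, Aldh1b1, Aldh4a1, Aldh6a1, Aldh7a1, Aldh9a1 and Aldh18a1. The members were chosen by name, with earlier results of these data known, through array probe sets whose platform annotation gives exactly 1 gene symbol. All 10 were measured, on 21 of the 34945 probe sets with 1 symbol, and they are 10 of 18193 genes in all. Aldh3a1 rose about 4-fold in caNrf2 skin, and none of the other 9 passed the threshold in either direction.

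The study compared the whole back skin of 3 mice labelled K5cre-caNrf2 (tg/tg) with that of 3 control mice labelled K5cre-wt (tg/wt). All 6 were females of 1 litter, with a mixed background of FVB/N and C57BL/6, taken at postnatal day 2.5, and both labels name K5cre, so the Cre recombinase is read as shared by both groups. K5cre stands for Cre under the control of the promoter of keratin 5, a keratin of basal keratinocytes, whereas the RNA came from whole skin with its dermis, fat and muscle. Each mouse had its own Affymetrix 3 prime expression array, and the sample descriptions add the word weak to both groups without saying what it refers to. Intensities are RMA values, a background-corrected and quantile-normalised signal, and differences are given on the log2 scale as caNrf2 minus control. Adjusted p-values come from limma with Benjamini-Hochberg adjustment over all genes, with 0.05 as the threshold.

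Nrf2 is a transcription factor that is held back by Keap1 and turns on antioxidant and detoxification genes when released. Aldehyde dehydrogenases bear on this in different ways. Some clear aldehydes that arise from oxidised lipids, fatty alcohols or ethanol, and others are fixed steps in the breakdown or synthesis of amino acids and carnitine. Aldh3a1 is known as a gene of the first kind that responds to both Nrf2 and the aryl hydrocarbon receptor. Aldh3a2 matters in skin because loss of its human counterpart causes ichthyosis in Sjögren-Larsson syndrome.

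Array medians lay between 80.9 and 82.1 intensity units, and having only 3 arrays a group limits the precision. Nfe2l2, the gene of Nrf2, measured 9.36, 9.40 and 9.42 on the control arrays and 9.91, 9.75 and 9.75 on the caNrf2 arrays (log2). All its caNrf2 values lay above the control values, yet at 0.41 ± 0.07 (SE) the difference was not called (adjusted p = 0.0539). A second, much dimmer probe set of Nfe2l2 had overlapping groups and a difference of 0.24 ± 0.14 (adjusted p = 0.648 over all probe sets). Whether the probes of Nfe2l2 detect the transgene was not analysed here. In the whole comparison 63 genes rose and 5 fell, 0.346% and 0.0275% of the genes tested. These shares, the background for the counts of members, moved with single arrays. Without control array 1, 2 or 3 the genes that rose numbered 40, 40 and 41, and without caNrf2 array 1, 2 or 3 they numbered 71, 47 and 56. The genes that fell numbered 1, 3 and 4 without these control arrays and 18, 1 and 4 without these caNrf2 arrays. All 7 basal keratinocyte, all 8 suprabasal and all 6 measured dermal fibroblast markers lay above the level of silent genes. The measured markers of every other cell type list did so too, so this is no test of the tissue label. The level of silent genes was taken from 3 Y-linked genes in these female mice, which read between 2.94 and 3.95 (log2). The summed intensity of the basal markers was 35750 to 36950 on control and 36450 to 38590 on caNrf2 arrays, and the part of such shifts in the results was not tested. In bulk skin, fewer cells of a type and less RNA per cell cannot be told apart.

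Aldh3a1 was the only member that rose. The enzyme oxidises medium-chain and aromatic aldehydes and is best known as an abundant protein of the cornea. Its probe set read 79.4, 76.0 and 81.0 intensity units on control arrays 1 to 3 and 391, 359 and 242 on caNrf2 arrays 1 to 3. The groups were far apart, and the lowest caNrf2 array was still well above every control array. The mean was 78.8 ± 2.57 in control and 331 ± 78.2 in caNrf2 skin (SD, n = 3). On the log2 scale it went from 6.30 ± 0.05 to 8.34 ± 0.37, a difference of 2.04 ± 0.15 (SE), or 4.11-fold (95% interval 3.27 to 5.17; adjusted p = 9.6e-05). The call was kept whichever array was left out, with differences from 1.90 to 2.25. An exact two-sided permutation test over the 6 arrays gave p = 0.1, the smallest that 3 against 3 can give. In the count of members, 1 of 10 rose where 0.346% of all genes did, and 0 of 10 fell where 0.0275% did. The members were chosen with earlier results of these data known, so these counts are a description and no test of enrichment.

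**Figure D1:**
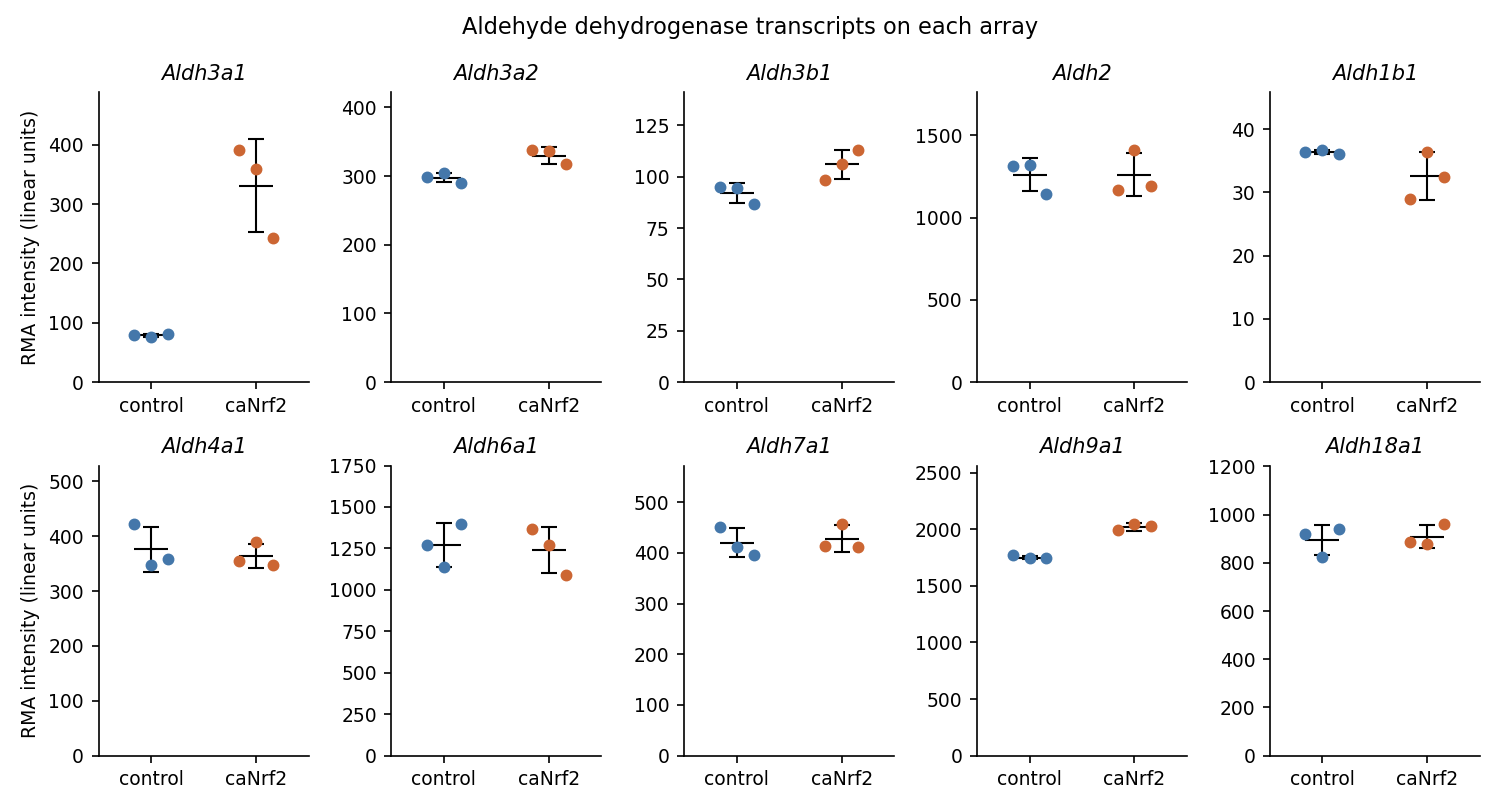
RMA intensity (linear units, axis from 0) of each of the 10 genes on the 3 control (blue) and 3 caNrf2 (orange) arrays; each point is 1 mouse, and the black bar and whiskers are mean and SD (n = 3). Aldh3a1 stands at 76.0 to 81.0 in control and 242 to 391 in caNrf2 skin, while in the other panels the groups lie close together or overlap.

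The caNrf2 mice differed more among themselves in Aldh3a1 than the controls did, with an SD of 0.37 against 0.05 (log2). The SE of its difference was larger than that of 98.3% of all genes. Relative to the control mean, Aldh3a1 was higher by 2.31, 2.19 and 1.62 on caNrf2 arrays 1, 2 and 3. The mouse of array 3 was thus the lowest of the caNrf2 group. This was compared with a list of known Nrf2 targets, chosen with earlier results of these data in view, of which 10 of 12 rose. Of all 12, 8 also had their lowest caNrf2 value on array 3, all of them genes that rose. The share of all genes with their lowest caNrf2 value on that array was not computed. A low array 3 was not limited to Nrf2 targets. Of the 8 measured hair follicle markers, all but Tchh and Shh had it too. Krt71 read 13.59, 13.44 and 13.1 and Krt35 read 12.32, 12.14 and 11.75 on caNrf2 arrays 1 to 3. The spread between highest and lowest caNrf2 array was 0.69 for Aldh3a1, against 0.14 to 0.43 in the 10 that rose. Slc7a11, a cystine transporter that was not called, had a wider spread of 0.86, at 0.46, 1.32 and 0.94. Hmox1, a haem oxygenase that was not called either, had one of 0.41, at 0.08, 0.49 and 0.15. In both of these array 1 was the lowest and array 2 the highest. Srxn1, which repairs peroxiredoxins, was higher by 2.76, 2.52 and 2.34 on the same arrays. Gclc, a subunit of the enzyme that starts glutathione synthesis, was higher by 1.2, 1.05 and 0.78. In both, as in Aldh3a1, array 1 was the highest and array 3 the lowest of the caNrf2 group. No other of the 10 that rose had this order, and in the rest array 2 was the highest, apart from Gsta4. Gsta4, a glutathione transferase for lipid aldehydes, ran the other way with 1.95, 2.10 and 2.22.

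**Figure D2:**
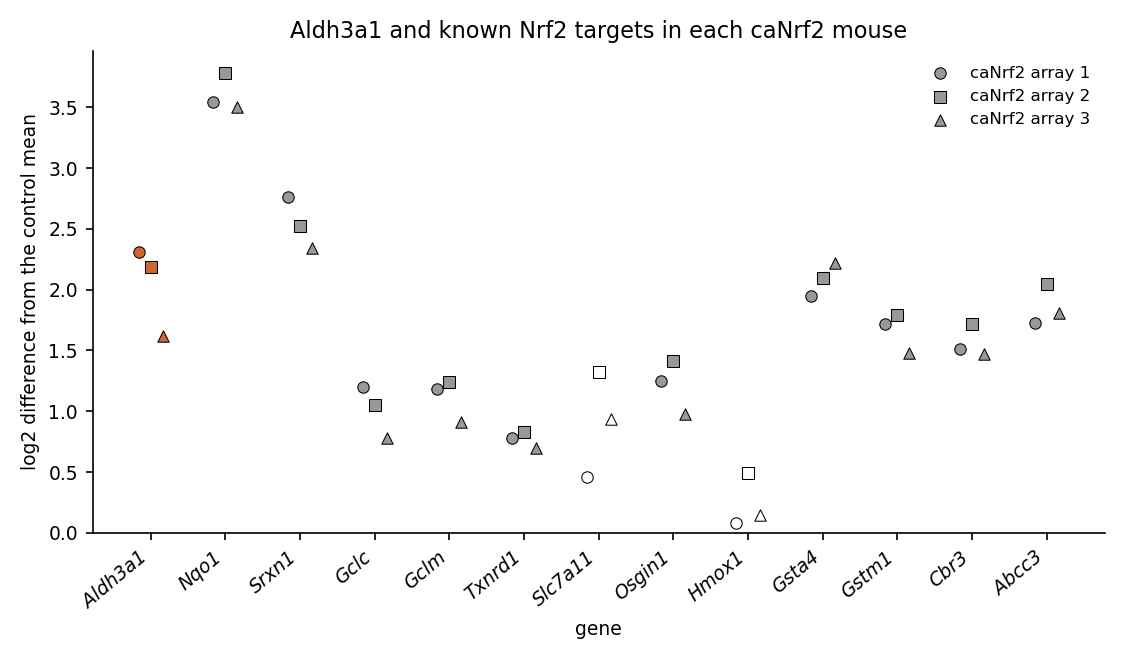
Log2 difference from the control mean on each of the 3 caNrf2 arrays (1 mouse each, by symbol) for Aldh3a1 (orange), the 10 known Nrf2 targets that rose (grey) and the other two of the 12, Slc7a11 and Hmox1 (open). Aldh3a1 spans 1.62 to 2.31 with its lowest value on array 3, and of the 13 genes shown Slc7a11 has a wider spread, 0.46 to 1.32.

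The genes whose values followed Aldh3a1 most closely over the 6 arrays were Abcc4, Cbr1, Gstm1, Gclc and Tbrg3, with Pearson r from 0.992 to 0.997. The measure is a description, because the 6 arrays form 2 separate groups and any gene that differs between them correlates. Of these 5, Abcc4, a multidrug resistance transporter, rose 2.82-fold, Gstm1, a glutathione transferase, 3.16-fold, Gclc 2.01-fold and Cbr1, a carbonyl reductase that reduces aldehydes and ketones, 1.90-fold. Cbr1 read 9.11, 8.99 and 9.14 in control and 10.07, 10.10 and 9.85 in caNrf2 skin (log2), with array 3 the lowest of its group. These genes were picked by their correlation with Aldh3a1, so a low array 3 in them is no separate observation. Tbrg3 differed by only 0.18 ± 0.07 and did not pass (adjusted p = 0.509).

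The nearest relatives of Aldh3a1 on the list, Aldh3a2 and Aldh3b1, did not pass the threshold. Aldh3a2 encodes the fatty aldehyde dehydrogenase of the endoplasmic reticulum, which oxidises long-chain aldehydes made from fatty alcohols, sphingosine phosphate and ether lipids. It measured 8.22, 8.25 and 8.18 in control and 8.40, 8.40 and 8.31 in caNrf2 skin (log2). The caNrf2 arrays all lay above the control arrays, but by little. The difference was 0.15 ± 0.07 (1.11-fold, 95% interval 0.998 to 1.24; adjusted p = 0.625). Aldh3b1, which also acts on lipid-derived aldehydes, measured 6.57, 6.56 and 6.44 in control and 6.62, 6.72 and 6.82 in caNrf2 skin. These groups did not overlap either. The difference was 0.19 ± 0.08 (1.14-fold, 1.01 to 1.29; adjusted p = 0.574).

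Aldh3a1 and Aldh3a2 are neighbours on chromosome 11 in the RefSeq gene order of GRCm38.p6. Among the 3 protein-coding genes on either side of Aldh3a1, 5 were measured and none passed the threshold, with differences from -0.03 to 0.25. Usp22, a ubiquitin protease next to Aldh3a1 on the side away from Aldh3a2, differed by 0.02 ± 0.08 (adjusted p = 0.979), and the transporter Slc47a1 by 0.17 ± 0.09 (adjusted p = 0.692). The largest, 0.25 ± 0.13, was that of the potassium channel gene Kcnj12 (adjusted p = 0.69).

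Aldh9a1 was the member with the smallest p after Aldh3a1. Its enzyme oxidises trimethylaminobutyraldehyde in carnitine synthesis. It measured 10.79, 10.77 and 10.77 in control and 10.96, 11.00 and 10.99 in caNrf2 skin (log2), so the groups were tight and did not overlap. The difference was 0.21 ± 0.07 (1.15-fold, 95% interval 1.04 to 1.28) and missed the threshold over all genes (adjusted p = 0.427). The second probe set of Aldh9a1 read 9.55, 9.43 and 9.42 in control and 9.56, 9.71 and 9.55 in caNrf2 skin, a difference of 0.14 in the same direction. Both probe sets are of a kind designed to match several transcripts of a gene. In all, 4 of the 10 genes had every caNrf2 array above every control array, where 6.23% of all genes did, and 0 of 10 had every array below, where 6.88% did. These 4 were Aldh3a1, Aldh3a2, Aldh3b1 and Aldh9a1. Adjusted p for the last 3 was 0.427 or more, so the separation was not accompanied by a call.

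RefSeq promoter windows for GRCm38.p6 were at hand for 7 of the 10 genes, all but Aldh3a1, Aldh2 and Aldh7a1. The 250 bases before the annotated start are printed for the 3 genes whose groups separated by a small amount, Aldh3a2, Aldh3b1 and Aldh9a1, and for Aldh4a1, the only gene with overlapping groups whose window holds a match to the letters searched. Those letters are the core of the antioxidant response element, to which Nrf2 binds with a small Maf protein, searched as TGACNNNGC and as TGAGNNNGC on both strands, and matches are in capitals. The windows lie at chr11:61267187-61267436 (minus strand) for Aldh3a2, chr19:3929779-3930028 (minus strand) for Aldh3b1, chr1:167349741-167349990 (plus strand) for Aldh9a1 and chr4:139622644-139622893 (plus strand) for Aldh4a1, each written 5′ to 3′ along its gene.
Aldh3a2: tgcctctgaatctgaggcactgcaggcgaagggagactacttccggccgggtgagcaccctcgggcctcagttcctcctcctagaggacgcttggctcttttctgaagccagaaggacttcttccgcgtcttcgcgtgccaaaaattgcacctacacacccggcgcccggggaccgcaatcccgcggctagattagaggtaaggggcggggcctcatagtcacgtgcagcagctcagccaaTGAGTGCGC
Aldh3b1: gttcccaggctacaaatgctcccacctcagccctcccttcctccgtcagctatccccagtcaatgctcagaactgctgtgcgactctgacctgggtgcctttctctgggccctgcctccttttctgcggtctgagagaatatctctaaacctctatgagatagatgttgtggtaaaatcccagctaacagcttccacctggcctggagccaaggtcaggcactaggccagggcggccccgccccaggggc
Aldh9a1: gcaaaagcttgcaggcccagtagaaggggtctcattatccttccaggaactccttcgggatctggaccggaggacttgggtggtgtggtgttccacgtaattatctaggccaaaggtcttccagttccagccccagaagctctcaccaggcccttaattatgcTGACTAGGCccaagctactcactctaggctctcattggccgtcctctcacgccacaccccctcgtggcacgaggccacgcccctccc
Aldh4a1: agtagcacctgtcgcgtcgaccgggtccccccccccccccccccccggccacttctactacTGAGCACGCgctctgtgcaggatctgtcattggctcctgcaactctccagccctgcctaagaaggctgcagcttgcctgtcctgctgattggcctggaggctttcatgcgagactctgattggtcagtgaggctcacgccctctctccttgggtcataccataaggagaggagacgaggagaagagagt

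The window of Aldh9a1 holds TGACNNNGC once, as TGACTAGGC at 87 to 79 bases before the start, a form found in 10.2% of all 32851 windows of this length. Those of Aldh3a2 and Aldh4a1 hold TGAGNNNGC, found in 14.4%, as TGAGTGCGC right before the start and as TGAGCACGC at 189 to 181 bases before it. The window of Aldh3b1 held neither form, nor did those of Aldh1b1, Aldh6a1 and Aldh18a1, whose groups overlapped. Among the genes with a window, a match thus stood in 2 of the 3 whose groups separated and in 1 of the 4 whose groups overlapped. These counts are too small to compare, and none of the 7 genes was called. The share of all windows that hold either form was not computed, and Aldh3a1 has no window. GCGTG, the core to which the aryl hydrocarbon receptor binds, occurred in 4 of the 7 genes, Aldh3a2, Aldh4a1, Aldh9a1 and Aldh18a1, and in 28.2% of all windows. It overlaps the TGAGNNNGC match in Aldh4a1. The 7 genes have 8 windows, because Aldh6a1 has several, so counts of genes and shares of windows are not quite alike. A match describes the letters only, and binding was not measured.

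The mitochondrial enzymes of acetaldehyde oxidation did not pass the threshold. Aldh2, the main enzyme that clears acetaldehyde formed from ethanol, measured 10.36, 10.37 and 10.16 in control and 10.19, 10.46 and 10.21 in caNrf2 skin (log2). Its groups overlapped, and the difference of -0.01 ± 0.09 has a 95% interval of 0.861 to 1.15-fold (adjusted p = 0.997). Its other 4 probe sets were dimmer and ran in both directions, from -0.11 to 0.12, and none passed. The dimmest of these, with values of 4.25 to 4.30 in control and 4.05 to 4.23 in caNrf2 skin, was the only member probe set with every caNrf2 array below every control array. Aldh1b1, a related mitochondrial enzyme, measured 5.19, 5.20 and 5.17 in control and 4.85, 5.19 and 5.02 in caNrf2 skin. It was the only member whose mean over all 6 arrays lay below the median level of all probe sets, 6.34. The control arrays of Aldh3a1 alone, at 6.31, 6.25 and 6.34, lay close to that median as well. For Aldh1b1 the control values were nearly identical and the caNrf2 arrays scattered, with array 2 at the control level. The difference of -0.16 ± 0.09 did not pass (adjusted p = 0.69).

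Members with a fixed place in amino acid metabolism differed by small amounts and did not pass. Aldh4a1 turns pyrroline carboxylate into glutamate in the breakdown of proline. It read 8.72, 8.44 and 8.48 in control and 8.47, 8.60 and 8.44 in caNrf2 skin (log2), a difference of -0.04 ± 0.09 (adjusted p = 0.949). Aldh18a1 runs the other way, from glutamate to pyrroline carboxylate, and thus starts proline synthesis. It read 9.84, 9.69 and 9.88 in control and 9.79, 9.78 and 9.91 in caNrf2 skin, a difference of 0.02 ± 0.08 (adjusted p = 0.974). Both pairs of groups overlapped. The 5 probe sets of Aldh18a1 agreed, with differences between -0.02 and 0.07, although 4 of them are of a kind that can also bind other transcripts.

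Aldh6a1 oxidises methylmalonate semialdehyde in the breakdown of valine and thymine. It measured 10.31, 10.16 and 10.45 in control and 10.42, 10.31 and 10.09 in caNrf2 skin, with a difference of -0.03 ± 0.10 (adjusted p = 0.969). The spread within each group, an SD of 0.15 in control and 0.17 in caNrf2 skin, was larger than the difference. Aldh7a1, which oxidises aminoadipate semialdehyde in lysine breakdown and also protects cells against betaine aldehyde and osmotic stress, measured 8.82, 8.69 and 8.63 in control and 8.69, 8.84 and 8.68 in caNrf2 skin. Its groups overlapped too, with a difference of 0.03 ± 0.08 (adjusted p = 0.969). Its other 2 probe sets differed by 0.00 and -0.09, and the dimmer of them, at a mean of 3.31, lay within the range of silent genes. It was the only one of the 21 member probe sets that did.

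**Figure D3:**
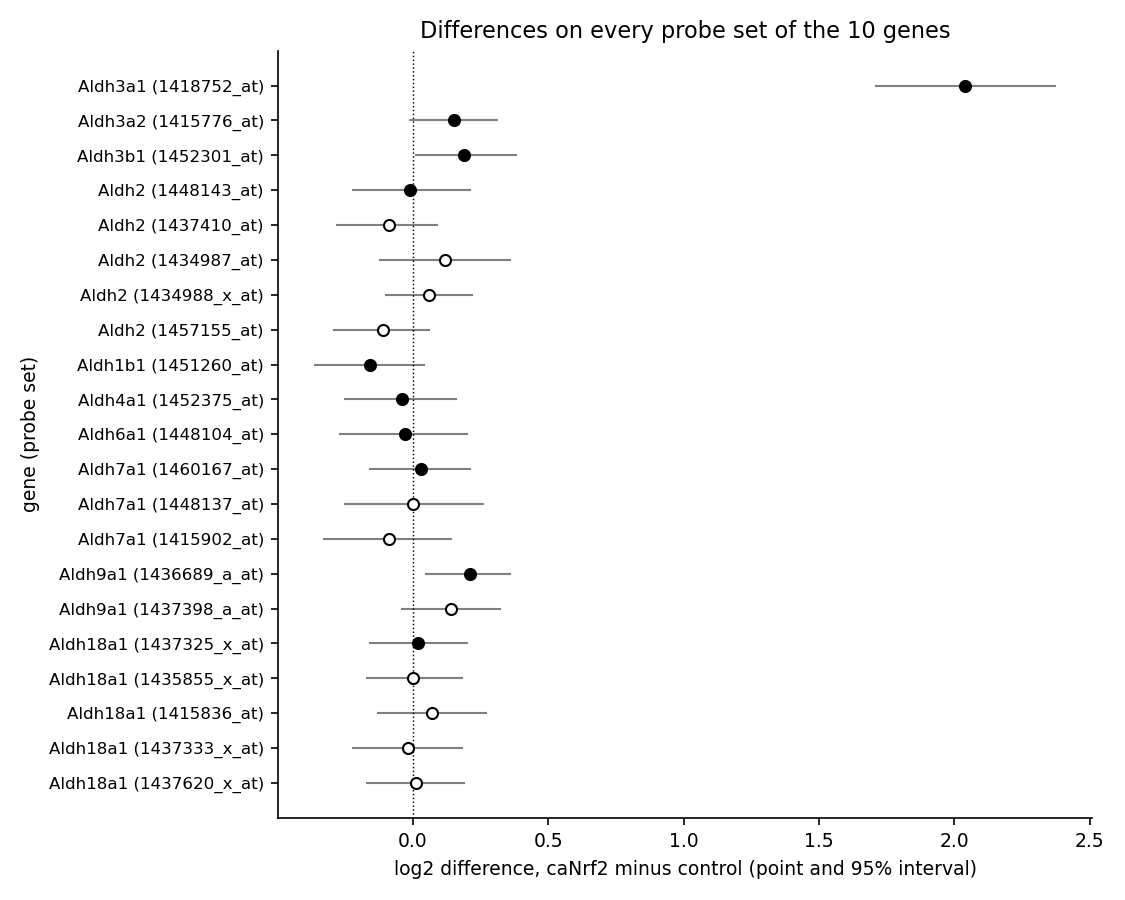
Log2 difference (caNrf2 minus control) with its 95% interval for each of the 21 probe sets of the 10 genes, from the fit over all 45037 probe sets; filled points mark the probe set that stands for its gene and open points the others. The interval of Aldh3a1 lies apart from the rest, and the open points run from -0.11 to 0.14.

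Counted over probe sets, 1 of the 21 rose and 0 fell, where 0.226% and 0.0133% of all probe sets did. Every caNrf2 array lay above every control array on 5 of the 21 and below on 1, against 6.9% and 7.28% of all.

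The 9 members that did not pass are bounded as well as their number of arrays allows. Their differences ran from -0.16 to 0.21 with SEs of 0.07 to 0.10, and their 95% intervals reached at most 1.29-fold upward, for Aldh3b1, and at most down to 0.778 of the control level, for Aldh1b1. These intervals are not adjusted for the number of members, and RMA compresses the folds of dim probe sets. The median difference of the 10 members was 0.02, against -0.007 over all genes. The rise of Aldh3a1 exceeded the difference of each other member by 1.83 for Aldh9a1 to 2.20 for Aldh1b1. For all 9 members the log2 ratio of Aldh3a1 to the other member was higher on every caNrf2 array than on every control array. All 9 ratios share the values of Aldh3a1, so they restate its rise and are not 9 separate results. Each exact two-sided permutation test gave p = 0.1, the smallest that 3 against 3 arrays allow, and 0.1 after adjustment over the 9 comparisons. Differences between probe sets compare how far each moved and not their levels.

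**Figure D4:**
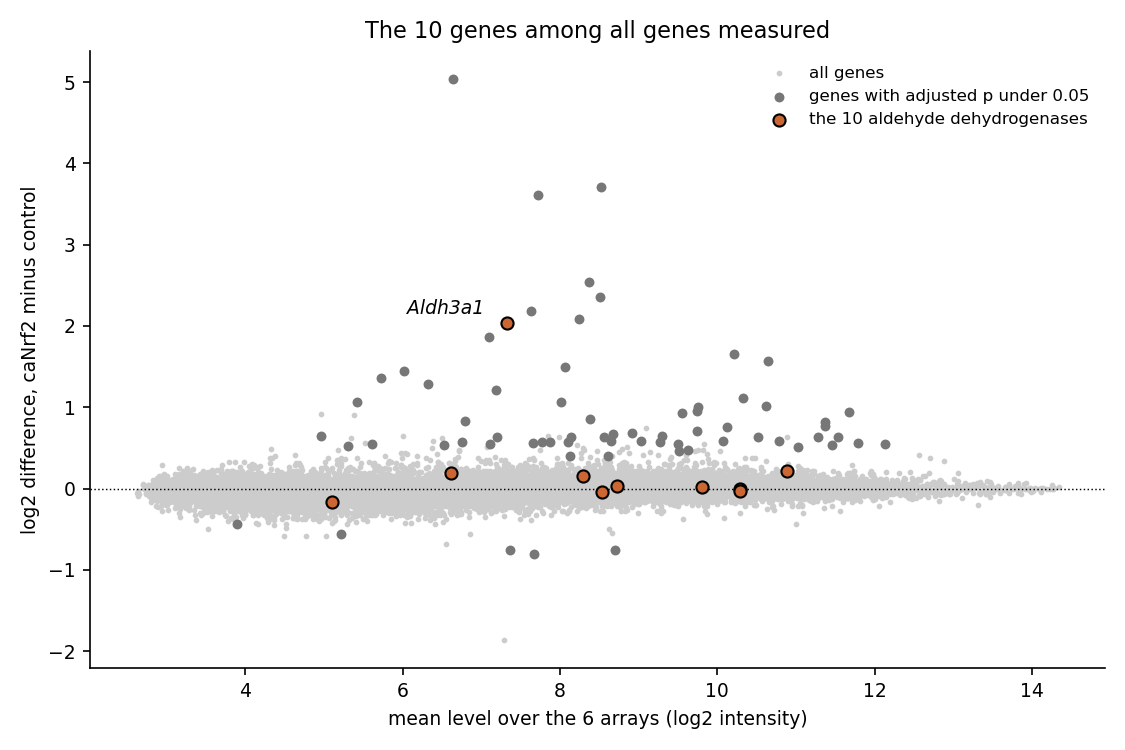
Log2 difference (caNrf2 minus control) against mean level over the 6 arrays (log2 intensity) for all 18193 genes, with the called genes in dark grey and the 10 aldehyde dehydrogenases in orange. Aldh3a1 lies at 2.04 among the called genes, and the other 9 lie between -0.16 and 0.21 within the cloud of all genes.

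Further members of the family, among them the retinal dehydrogenases, were taken as a second list of 10, all of them measured, and none passed the threshold, although their median difference of 0.11 was above that of all genes. Aldh5a1, which oxidises succinate semialdehyde from the transmitter GABA, had the smallest p. It read 7.31, 7.37 and 7.35 in control and 7.57, 7.60 and 7.73 in caNrf2 skin, without overlap and with a difference of 0.29 ± 0.07 (adjusted p = 0.264). Aldh1a7 and the retinal dehydrogenase Aldh1a1 each differed by 0.56, with SEs of 0.18 and 0.17 and adjusted p = 0.443 and 0.365. For both, caNrf2 array 3 was the highest, at 9.86 and 6.24, the array on which Aldh3a1 was lowest in its group. Their groups did not overlap either. Aldh5a1, Aldh1a7 and Aldh1a1 were the only genes of these 10 with every caNrf2 array above every control array, where 6.23% of all genes had this. Aldh1a3, another retinal dehydrogenase, spanned 7.22 to 8.14 in caNrf2 skin against 7.68 to 7.78 in control, with array 3 lowest, and differed by -0.01 ± 0.18. The family member closest to Aldh3b1 by name, Aldh3b2, differed by 0.13 ± 0.08 (adjusted p = 0.725).

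Genes around each member in its metabolic route were described as lists, chosen with earlier results of these data known. In alcohol and acetaldehyde metabolism 1 of 8 measured genes rose, 0 fell and the median was 0.17. The risen gene was Adh7, an alcohol dehydrogenase that forms aldehydes from retinol and other alcohols, at 7.32, 7.49 and 7.18 in control and 9.64, 9.75 and 9.67 in caNrf2 skin (5.13-fold). A second, dimmer probe set of Adh7 gave 8.92-fold. Adh1, the classical liver-type alcohol dehydrogenase, differed by 0.34 ± 0.12 (adjusted p = 0.472), and Acss2, which makes acetyl-CoA from acetate, by 0.24 ± 0.10 (adjusted p = 0.609). In the route that forms and uses fatty aldehydes, where Aldh3a2 acts, 0 of 10 genes passed, with a median of 0.04. Sgpl1, the lyase that releases a fatty aldehyde from sphingosine phosphate, came closest at 0.20 ± 0.08 (adjusted p = 0.539).

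The routes of amino acids and carnitine held no called gene. Proline, ornithine and glutamate metabolism, around Aldh4a1 and Aldh18a1, had 0 of 13 genes called and a median of 0.00, with differences from -0.12 to 0.09. Breakdown of branched-chain amino acids and propionate, around Aldh6a1, had 0 of 22 and a median of 0.01. Lysine breakdown, around Aldh7a1, had 0 of 8 and a median of 0.00, and Dhtkd1, a dehydrogenase subunit of that route, differed by -0.18 ± 0.08 (adjusted p = 0.594). Carnitine synthesis and transport, around Aldh9a1, had 0 of 9 and a median of 0.02. Bbox1, which completes carnitine synthesis, differed by 0.17 ± 0.09 (adjusted p = 0.664).

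Aldh3a1 is also a gene of the aryl hydrocarbon receptor, so the battery of that receptor was set beside it. Of 8 measured genes 1 rose and 0 fell, and the median was 0.01. The risen gene was Nqo1, a quinone reductase shared with Nrf2, at 6.20, 5.90 and 5.67 in control and 9.46, 9.70 and 9.42 in caNrf2 skin (12.2-fold). Cyp1a1, the gene by which that receptor is usually followed, went the other way without passing. It read 7.23, 7.18 and 7.26 in control and 7.02, 7.01 and 6.59 in caNrf2 skin, a difference of -0.35 ± 0.11 (adjusted p = 0.416). Cyp1b1 differed by 0.00 ± 0.14, Ahrr, a repressor induced by the receptor, by 0.02 ± 0.09, and Tiparp by 0.10 ± 0.08, with adjusted p-values of 0.998, 0.976 and 0.81.

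**Figure D5:**
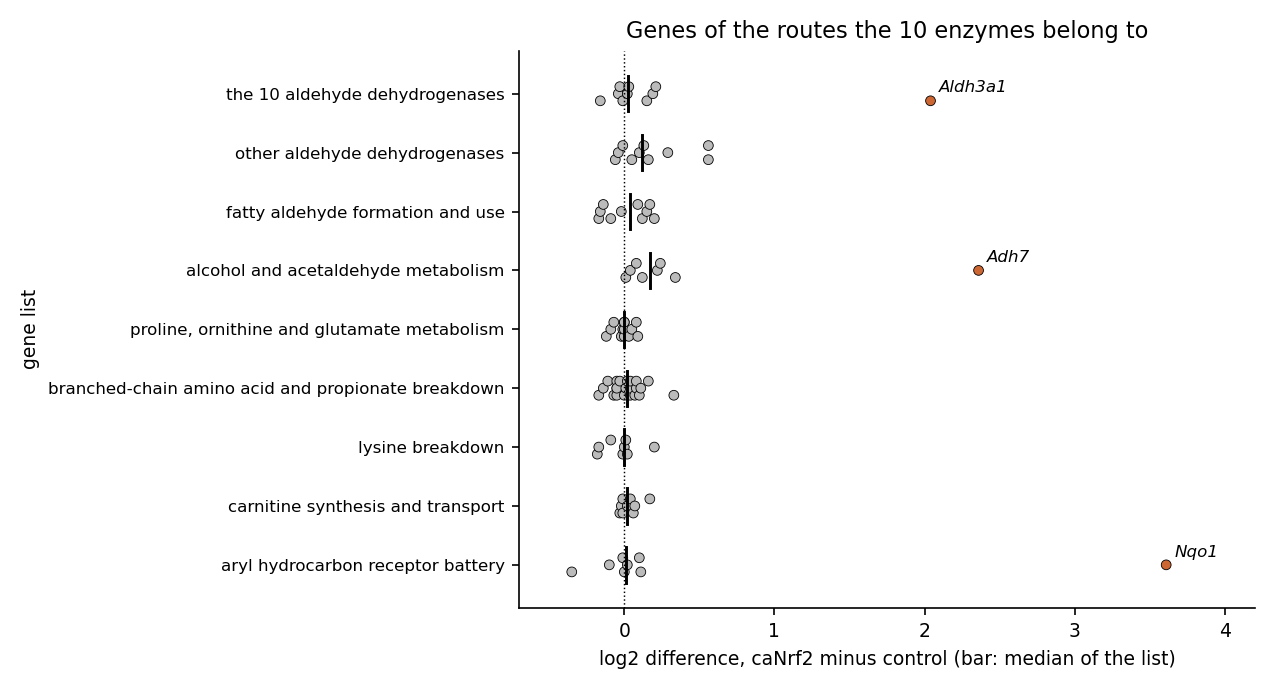
Log2 difference (caNrf2 minus control) of each gene in the lists around the 10 enzymes; each point is a gene, orange where it passed the threshold, and the bar is the median of the list. Aldh3a1, Adh7 and Nqo1 are the genes that passed, and the medians lie between 0.00 and 0.17.

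Marker lists of other skin cells held 1 called gene. In the sebaceous list, 1 of 5 measured genes fell, the desaturase Scd3 (-0.81 ± 0.13, adjusted p = 0.0294). The median of this list was -0.16, and 2 of the 5 differences were positive. Elovl3 differed by -0.37 ± 0.12 (adjusted p = 0.442) and Mgst1 by 0.19 ± 0.09 (adjusted p = 0.631). The summed intensity, in which bright genes weigh most, was 11560 to 12770 on control and 11780 to 13350 on caNrf2 arrays. The 6 measured adipocyte markers had a median of -0.10 and sums of 20020 to 21670 and 19880 to 20750, with no member called. Of their differences 0 were positive, and Pck1 differed by -0.55 ± 0.10 without overlap (adjusted p = 0.0666). The 8 measured hair follicle markers had sums of 50200 to 51740 on control arrays and a wider 42790 to 56220 on caNrf2 arrays. Immediate early and stress genes, 6 in number, had a median of 0.01 and no called member. All markers measured in these lists lay above the level of silent genes. The part of these lists in the values of the aldehyde dehydrogenases was not tested.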

How the data were processed

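Total RNA from the back skin of 6 mice was hybridised to 1 Affymetrix array each, from 2 µg of RNA with one-cycle labelling, per the labels' protocols. The authors deposited 1 linear intensity per probe set and array, made with RMA per the submitters' processing notes, in a version that is not given in the sources used here. Because RMA equalises the distributions of arrays, it would hide a shift common to most genes. Scanner files were not used here.

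Intensities were converted to log2. After 64 Affymetrix controls were left out, 45037 of 45101 probe sets remained, of which 34945 carry 1 symbol, 932 several and 9160 none. The probe set with the highest mean stood for each of 18193 genes, and further probe sets of the members were taken from a fit over all 45037. Columns of other series numbered 0. The comparison used lmFit and eBayes of limma 3.58.1 (R 4.3.3) without block or covariate, with 4 residual degrees of freedom, and was tested on simulated data. Replicates were separate animals. Fold changes come from the fit, and their number of arrays limits the precision.

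The named genes were every member on every probe set, the 5 genes best correlated with Aldh3a1, and from each list at most 4 genes of smallest p; further list members named for contrast, and neighbours, were chosen after their values were seen. The members and lists were chosen with earlier results of these data known. RefSeq (GRCm38.p6) tables, matched by symbol for all 10 members, gave gene order, and for 7 a promoter window. Same-numbered arrays were not treated as pairs. The alternatives were other scalings, filters, fits and leaving out each array.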

Additional observations from a re-analysis of the deposited data

How the results depend on the processing

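Aldh3a1 was called higher, and no other member in either direction, under all 18 alternatives of the fit over all genes or probe sets. Its difference lay between 1.84, for log2 of the value plus 16, and 2.25, without caNrf2 array 3, and between 1.90 and 2.25 when single arrays were left out. In the exact permutation test its difference of 2.04 could not pass, at an adjusted p of 0.25 over the members. The other 9 members gave 170 values under the alternatives, of which 0 were called, with a lowest adjusted p of 0.191. Aldh3a2, Aldh3b1 and Aldh9a1 kept their sign under all 19, and Aldh1b1 under the 18 that gave it a value, since the filter on low values left it out. Small differences changed sign. Aldh7a1 was -0.01 with a further quantile normalisation and -0.02 with the mean of all its probe sets, and Aldh18a1 was -0.01 with that normalisation and with cyclic loess. Leaving out single arrays gave -0.09 to 0.04 for Aldh2, -0.10 to 0.05 for Aldh4a1, -0.11 to 0.06 for Aldh6a1, -0.02 to 0.08 for Aldh7a1 and -0.03 to 0.06 for Aldh18a1. The excess of Aldh3a1 over each other member, computed under 11 alternatives (the scalings, log2 of the value plus 16, the mean of all probe sets and each array left out), stayed between 1.64 and 2.41.

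Counts over all genes moved more. Genes called higher numbered 102 in the fit of all probe sets, which counts probe sets, 27 when tested against a fold of 1.2, and 40 to 71 without single arrays, in place of 63. Genes called lower, 5 in the main comparison, numbered 2 with log2 of the value plus 16, 3 with the mean of all probe sets, 8 with an intensity trend, 11 with array weights, 1 against a fold of 1.2 and 1 to 18 without single arrays. The cause was not tested, apart from the stricter null of the fold test. Scaling alternatives shifted the median gene by -0.011 to 0.006 (log2).

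Same-numbered arrays deviated together by correlations of -0.20, -0.03 and 0.04, and differently numbered ones by -0.16 to 0.19. These values gave no sign that the numbers pair the mice, though 3 arrays a group cannot show that they do not. With a replicate block, Aldh3a1 differed by 2.04 (adjusted p = 4.64e-05), 56 genes were called higher and 5 lower. Signal limits what can be seen for Aldh1b1, whose probe set lay below the median level, and for the dimmest probe set of Aldh7a1, at the level of silent genes.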

Other observations

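A pair of probe sets names both Aldh3b2 and Aldh3b3, a pair of genes close to Aldh3b1 on chromosome 19, and were not counted as genes. The dimmer read 6.54, 6.64 and 6.58 in control and 6.81, 6.89 and 6.81 in caNrf2 skin (log2), without overlap, a difference of 0.25 ± 0.07 that did not pass over all probe sets (adjusted p = 0.363). The brighter read 8.0, 8.05 and 8.0 in control and 7.93, 8.26 and 8.11 in caNrf2 skin, with overlap and a difference of 0.09 ± 0.09 (adjusted p = 0.83). Entpd5, which encodes a nucleotide-hydrolysing enzyme and is the third protein-coding gene from Aldh6a1 on chromosome 12, rose by 0.63 ± 0.08 (adjusted p = 0.0044), a gene chosen after seeing its value. The other 4 measured neighbours of Aldh6a1 differed by -0.01 to 0.13, and none passed. Mgst3, a membrane glutathione transferase next to Aldh9a1 on chromosome 1, differed by -0.01 ± 0.07 (adjusted p = 0.986).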
